A study of Mus musculus with 2 samples.

Results

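The desmosome components described here are 10 genes, Dsg2, Dsg3, Dsc2, Dsc3, Jup, Pkp1, Pkp2, Pkp3, Dsp and Perp, chosen by name among 29982 genes with values in a microarray study of the embryonic mouse ureter. They were read by 16 of the 39381 probes with a kept spot on both arrays. Each probe was printed in 4 spots per array, and 9 of the 10 genes were bright enough to be tested.

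Desmosomes are adhesive junctions that tie epithelial cells together and anchor their keratin filaments. Desmogleins and desmocollins are cadherins that span the membrane and bind those of the neighbouring cell. Inside the cell, plakoglobin (Jup) and the plakophilins (Pkp genes) bind the cadherin tails, and desmoplakin (Dsp) connects this plaque to keratins. Dsg2, Dsc2 and Pkp2 are the widely expressed forms, simple epithelia included. Dsg3, Dsc3 and Pkp1 are typical of basal layers of stratified epithelia or of squamous epithelium. The urothelium, the lining of the ureter and bladder, is a stratified epithelium with basal, intermediate and superficial cells.

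Ureters of NMRI mice at E16.5 were pooled by sex, and RNA of a mutant and a control pool was hybridised together on each of 2 dual-colour arrays. The mutant, Pparg-cKO, has the genotype Pax2-cre/+; Pparg(fl/fl), in which cre deletes exons of the nuclear receptor gene Pparg in the ureteric epithelium and in other derivatives of the nephric duct. Controls were littermates without cre, labelled Pparg(fl/?), so that their second allele is not given, and the pools hold several animals each and mesenchyme as well as epithelium. Array 1 (replicate 1) held female and array 2 (replicate 2) male pools, with the dyes exchanged, so that dye and sex cannot be told apart. Labels of the second channel give the stage as E14.5, whereas titles and protocol give E16.5.

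The genotype behind each dye was not settled, since the dye labels oppose the direction of the study's text, and that of its deposited fold changes if these are mutant over control, as the sample titles put it. RNA A is therefore the RNA in red on array 1 and in green on array 2, and RNA B is its partner on the same array. RNA A was control by the labels, and Pparg-cKO under the study's reading. Apart from the arrays, the study reports Krt20, Upk1a and Upk3b as reduced or absent in mutant ureters by RNA in situ hybridisation. These genes were brighter in RNA B here. Every log2 ratio below is RNA A over RNA B, and none is assigned to a genotype. The targeted gene, Pparg, gave signals of 11295 in RNA A against 7430 in RNA B for array 1, and 12888 against 7872 for array 2, a log2 ratio averaging 0.66 ± 0.076 (SD, n = 2 arrays). The place of its probe relative to the deleted exons was not analysed here, so this value checks no label.

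A filter and a model served to call a gene, the filter after the study's methods. Calls under the filter needed at least 1.5-fold the same way on both arrays, with the brighter RNA at a signal of 100 or more on each. The model was limma on the log2 ratios of 21429 genes, those that 1 or both RNAs showed well above background on each array, with an adjusted p under 0.05. Of the 10 desmosome genes, 0 passed the filter, against 0.387% of all genes. Of the 9 tested, 0 passed the limma threshold, against 0.313% of all genes tested, and 2 (Dsc3 and Pkp1) had an unadjusted limma p under 0.05, against a background of 3.78% (1.68% for the direction of both, brighter in RNA A). These 2 were also the ones to reach 1.5-fold on at least 1 array, as 12.6% of all genes tested did, and 0 reached it in opposite directions with enough signal, against 0.43% of all genes. In RNA of whole ureters, fewer cells of a type and less RNA per cell cannot be told apart.

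A short account of 2 probes comes first, because they limit what can be said of Jup and Dsp. The single Jup probe lies on chromosome 11, 100238038 to 100238097 (mm9). A dim Dsp probe covers 1100 genomic bases with 60 letters, chromosome 13, 38285480 to 38286579 (mm9), and so spans an intron. Their sequences, as printed on the array, are in lower case throughout.
Jup: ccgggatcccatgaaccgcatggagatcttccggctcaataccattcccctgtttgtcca
Dsp, intron-spanning: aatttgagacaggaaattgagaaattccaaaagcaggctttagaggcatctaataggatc
The Jup letters hold no stop codon in 2 of 3 reading frames and the Dsp letters in 1. The other Dsp probe, which represents the gene below, lies 3542 bases further along the chromosome (38290121 to 38290180).

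**Figure D1:**
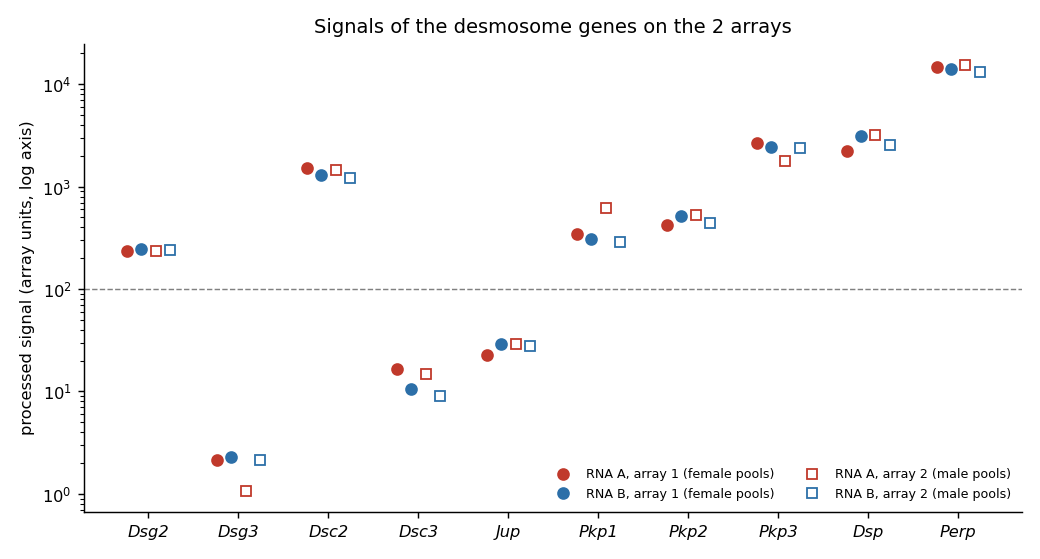
Processed signals (array units, log axis) of the 10 desmosome genes, each by its brightest probe; filled circles are array 1 (female pools), open squares array 2 (male pools), red RNA A and blue RNA B, and the dashed line marks 100. Perp was the brightest (13121 to 15339), 7 genes had all signals above 100, and Dsg3 reached at most 2.28.

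Among the desmosomal cadherins, the pair of widely expressed forms was readily detected. Dsg2 was nearly level between the RNAs at its brightest probe, and Dsc2 was 1.17-fold and 1.18-fold brighter in RNA A. Dsg2, the desmoglein of most epithelia, gave signals of 236 in RNA A against 244 in RNA B for array 1, and 237 against 242 for array 2. RNA B was slightly brighter on both arrays, as 17.4% of all genes tested were brighter in RNA B on both. The log2 ratio averaged -0.04 ± 0.011 (SD, n = 2 arrays), with a 95% limma interval from -0.49 to 0.41. A dimmer Dsg2 probe, with both RNAs well above background on both arrays, gave a mean log2 ratio of -0.30. Averaged over all Dsg2 probes the mean was -0.24, so the near-level ratio rests on the brightest probe. At the dimmest, RNA A was not well above background on array 1 (7.76 against 9.52), and array 2 gave 8.56 against 12.1.

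Dsc2, the desmocollin of most epithelia, gave signals of 1537 in RNA A against 1312 in RNA B for array 1, and 1454 against 1228 for array 2. RNA A was brighter on both arrays, as in 21.6% of all genes tested. The ratio was 1.17-fold on array 1 and 1.18-fold on array 2, and its mean log2 ratio was 0.24 ± 0.011 (SD, n = 2 arrays; limma adjusted p = 1.00). The 95% limma interval, from -0.21 to 0.68, uses the spread borrowed from all genes and is far wider than the spread between the arrays.

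Dsc3, the basal and squamous desmocollin, was read at low signals, and its fold shrank where an offset larger than those signals was added. Its brightest probe gave 16.53 in RNA A against 10.5 in RNA B for array 1, and 14.7 against 8.97 for array 2. RNA A was brighter on both arrays, 1.57-fold and 1.64-fold, and the mean log2 ratio was 0.68 ± 0.043 (SD, n = 2 arrays). On array 2 RNA B was not well above background, so that RNA B was measured on 1 of 2 arrays. Neither the array 2 fold nor the mean that holds it is an exact one. The limma fit gave an unadjusted p of 0.00745 and an adjusted p of 0.551. With another background correction (normexp with an offset of 50) and loess, the mean log2 ratio was 0.24. With loess alone it was 0.68. The offset exceeds the Dsc3 signals and by itself draws the ratio towards 0.

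A second Dsc3 probe gave 14.0 against 7.65 on array 1 and 9.26 against 6.95 on array 2, log2 ratios of 0.87 and 0.41. The probes thus had the same sign on both arrays. RNA B was not well above background on array 2 at this probe either. The log2 ratio over the spots of the brightest probe had an SD of 0.23 on array 1 and 0.17 on array 2, the largest on array 1 among the representing probes of the genes tested. All Dsc3 signals were below 100, which kept it out of the filter. When well above background replaced the signal of 100, a choice made after seeing the data, Dsc3 was the 1 desmosome gene to pass as brighter in RNA A, against 0.597% of all genes tested. It was admitted on array 2 by RNA A alone, so nothing is read from that count.

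Dsg3, the desmoglein of squamous epithelium and the autoantigen of pemphigus vulgaris, was not well above background at any of its 3 probes on either array. The signals ranged from 0.80 to 2.57 and were partly the surrogate values that the scanner software writes near background. No fold is given for it. All 4 cadherin genes lie in 1 cluster on chromosome 18.

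**Figure D2:**
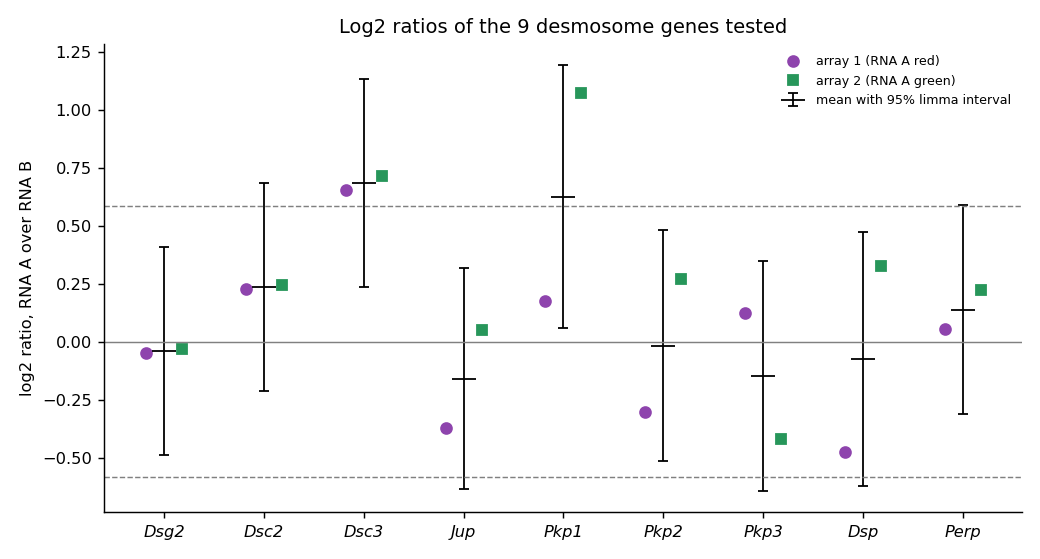
Log2 ratios of RNA A over RNA B for the 9 desmosome genes tested, with purple circles for array 1, green squares for array 2, a black dash for the mean and bars for the 95% limma interval; dashed lines mark 1.5-fold. Dsc2 had near-equal ratios on both arrays, whereas Dsp, Jup, Pkp2 and Pkp3 had opposite signs. For Dsc3, RNA B was not well above background on array 2, so that ratio is not exact.

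In the plaque, plakophilin 1 stood apart on 1 array. Pkp1, the plakophilin of suprabasal squamous layers, gave signals of 346 in RNA A against 306 in RNA B for array 1, and 613 against 291 for array 2 (chromosome 1, 137768027 to 137768086, mm9). RNA A was brighter on both arrays, as in 21.6% of all genes tested. The male pools gave the high RNA A signal, though levels set across separately normalised arrays are only approximate. The ratio was 1.13-fold on array 1 and 2.11-fold on array 2, where 1.78% of all genes tested differed by at least 2-fold either way. Its mean log2 ratio was 0.63 ± 0.64 (SD, n = 2 arrays). The limma fit gave an unadjusted p of 0.0343 and an adjusted p of 1.00.

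Pkp2, the plakophilin of simple epithelia and of heart muscle, gave signals of 418 in RNA A against 516 in RNA B for array 1, and 535 against 443 for array 2 (chromosome 16, 16272648 to 16272707). The green dye was the brighter on both arrays, so the ratios had opposite signs, and the mean log2 ratio was -0.02 ± 0.40 (SD, n = 2 arrays). Its 95% limma interval, from -0.52 to 0.48, stayed within 1.5-fold either way, as did that of Dsg2.

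Pkp3, found in nearly all desmosomes, gave signals of 2692 in RNA A against 2467 in RNA B for array 1, and 1776 against 2375 for array 2 (chromosome 7, 148276140 to 148276199). It was the 1 desmosome gene brighter in red on both arrays, with log2 ratios of 0.13 and -0.42 and a mean of -0.15 ± 0.39 (SD, n = 2 arrays).

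Jup, which encodes plakoglobin, was read only by the probe shown above. It gave 22.7 in RNA A against 29.4 in RNA B for array 1, and 29.0 against 27.9 for array 2. The mean log2 ratio was -0.16 ± 0.30 (SD, n = 2 arrays), and the ratios of the arrays had opposite signs. Such a signal is a property of the probe as well as of the transcript, so it is not set against the signals of other genes.

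Dsp, the keratin linker, gave signals of 2254 in RNA A against 3137 in RNA B for array 1, and 3185 against 2536 for array 2. Its log2 ratios of -0.48 and 0.33 were opposite in sign, as in 61% of all genes tested. The mean was -0.07 ± 0.57 (SD, n = 2 arrays), with a 95% limma interval from -0.62 to 0.47. The intron-spanning probe, with signals from 4.61 to 6.42, gave log2 ratios of -0.42 and 0.43, the same pair of signs, but neither RNA was well above background there on both arrays.

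Perp, a tetraspan membrane protein of desmosomes and a target of the p53 family, had signals of 14608 in RNA A against 14071 in RNA B for array 1, and 15339 against 13121 for array 2 (chromosome 10, 18576697 to 18576756). RNA A was brighter on both arrays, by 1.04-fold and 1.17-fold, and the mean log2 ratio was 0.14 ± 0.12 (SD, n = 2 arrays; limma adjusted p = 1.00).

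Between related forms, the differences of log2 ratios were taken within each array, with no test. Dsc3 lay above Dsc2 by 0.43 on array 1, where both RNAs were well above background for both genes. With normexp and loess the mean gap over both arrays was 0.02, against 0.45 without them, so the gap depends on the background correction. Pkp1 lay above Pkp2 by 0.48 on array 1 and 0.81 on array 2, averaging 0.64 here and 0.63 with normexp and loess. Pkp3 lay above Pkp2 by 0.43 on array 1 and differed from it by -0.69 on array 2, with no common direction, and Dsg3 against Dsg2 could not be read.

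Across the 9 genes tested, 4 (Dsc2, Dsc3, Pkp1 and Perp) had the brighter signal in RNA A on both arrays, against 21.6% of all genes tested. Dsg2 was the 1 gene brighter in RNA B on both, against 17.4%. The remaining 4 had opposite signs, against a background of 61%, and of these Dsp, Jup and Pkp2 were brighter in green on both arrays, against 32.6%, and Pkp3 in red, against 28.4%. The median of the mean log2 ratio was -0.02, beside 0.01 over all genes tested. By array the medians were 0.05 and 0.24, beside 0.00 and 0.03 over all genes tested.

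**Figure D3:**
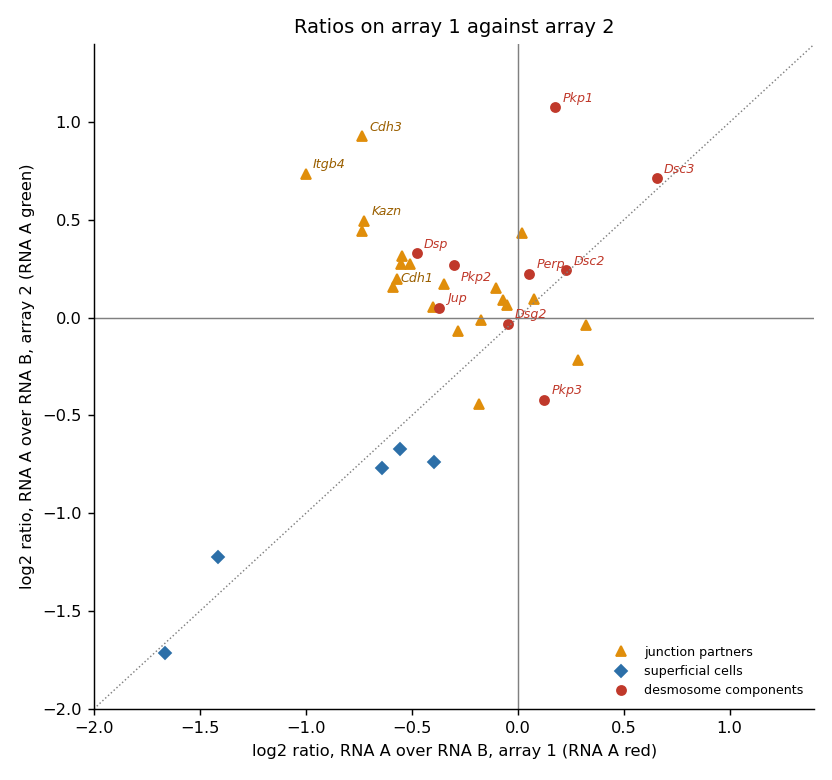
Log2 ratios of RNA A over RNA B on array 1 (x axis) and array 2 (y axis) for the desmosome components (red circles), junction partners of the plakin, adherens junction and hemidesmosome lists (orange triangles) and the 5 uroplakins of superficial cells (blue diamonds), with the dotted line at equal ratios. Uroplakins lie in the lower left along that line, whereas Dsp, Pkp2 and Jup lie in the upper left, as do 32.6% of all genes tested. Of the junction partners there, Cdh1, Cdh3, Itgb4 and Kazn are labelled, and no likeness is read from their places.

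Further desmosomal genes were few. Of 6 (Dsg1a, Dsg1b, Dsg1c, Dsg4, Dsc1 and Pkp4), 3 were tested and 0 passed the filter or limma. Pkp4, an armadillo protein of several junctions, gave 860 in RNA A against 904 in RNA B for array 1, and 920 against 990 for array 2, and the log2 ratios averaged -0.09 ± 0.024 (SD, n = 2 arrays), the lowest of the 3 tested.

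Dsc1, the desmocollin of upper epidermal layers, gave 17.9 and 9.26 on array 1 but 8.42 and 8.57 on array 2. On array 2 its RNA B was not well above background. Its mean log2 ratio of 0.46 ± 0.69 (SD, n = 2 arrays), the highest of the 3 tested, rested on array 1. Dsg1a gave 23.5 in either RNA on array 1 and 13.4 and 11.3 on array 2, and RNA of its close paralogs Dsg1b and Dsg1c may bind the same probe.

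Genes of the epidermis differed between the arrays. The 5 epidermal markers (Krt1, Krt10, Lor, Krtdap and Sbsn) were all tested, and their summed signal was 8415 in RNA A against 6782 in RNA B for array 1, but 2947 against 3086 for array 2. Lor, a cornified envelope protein, read 3418 and 3081 on array 1 and 429 and 555 on array 2. Krt1 was brighter in RNA A on both arrays, with 1310 against 874 and 241 against 170, and its log2 ratios averaged 0.54 ± 0.055 (SD, n = 2 arrays; limma adjusted p = 0.971). The part of epidermal RNA in the values of Dsc3, Dsc1, Dsg1a and Pkp1 was not tested. Pkp1 read 346 and 306 on array 1 and 613 and 291 on array 2. Arrays were normalised separately, so levels set across them are only approximate.

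Opposite signs on the arrays were the general state, at 61% of all genes tested, and nothing is read from their counts in the lists that follow. Of 6 plakin-associated genes, 6 were tested, 0 passed the filter or limma, and 5 had opposite signs. The lowest and highest mean log2 ratios were those of Pnn, a nuclear and desmosome-associated protein (-0.17 ± 0.15), and of Pof1b, an actin-binding junction protein (0.14 ± 0.26; SD, n = 2 arrays).

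Among 9 adherens junction genes, 9 were tested, 0 passed either test, 7 had opposite signs and all 7 were brighter in green both times. Cdh1 (E-cadherin) gave 4323 in RNA A against 6498 in RNA B for array 1, and 5935 against 5330 for array 2, and the log2 ratios averaged -0.22 ± 0.53 (SD, n = 2 arrays). Its signs were those of Dsp and Pkp2, and of 32.6% of all genes tested. Cdh3 (P-cadherin) had log2 ratios of -0.73 and 0.93, past 1.5-fold in opposite directions, and the highest mean of the list (0.10). Afdn, which links nectins to actin, had the lowest mean (-0.31 ± 0.18; SD, n = 2 arrays).

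Hemidesmosomes anchor basal cells to the basement membrane. Of their 6 genes, 6 were tested, 0 passed either test and 4 had opposite signs, all brighter in green. Itgb4, an integrin subunit of hemidesmosomes, had log2 ratios of -1.001 and 0.74 and the lowest mean (-0.13), and Col17a1, their transmembrane collagen, the highest (0.23 ± 0.29; SD, n = 2 arrays). The medians of the mean log2 ratio were -0.10 for plakin-associated, -0.15 for adherens junction and 0.01 for hemidesmosome genes, beside 0.01 over all genes tested.

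Keratins are the filaments that desmosomes hold, and here their directions differed. Of 8 tested, 3 had the brighter signal in RNA A on both arrays and 4 in RNA B on both, against 21.6% and 17.4% of all genes tested. The filter passed 1 of them, against 0.387% of all genes. The basal keratin Krt5 gave 939 in RNA A against 783 in RNA B for array 1, and 1029 against 646 for array 2, the highest mean log2 ratio of the list at 0.47 ± 0.29 (SD, n = 2 arrays; limma adjusted p = 1.00). Krt20, the keratin of superficial cells, gave 138 against 535 and 276 against 524, with a mean of -1.44 ± 0.73 (SD, n = 2 arrays; limma adjusted p = 0.0985). Krt20 passed the filter as brighter in RNA B. The median of the list was -0.07.

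Of 8 regulators of stratified epithelia, 8 were tested, 0 passed either test and 5 had opposite signs. Trp63, the basal cell factor that activates Perp, gave 1166 and 1443 on array 1 and 1435 and 1341 on array 2, and the log2 ratios averaged -0.11 ± 0.29 (SD, n = 2 arrays). Klf5 had the lowest mean (-0.39 ± 0.89) and Tfap2a the highest (0.16 ± 0.20). The median was -0.10.

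**Figure D4:**
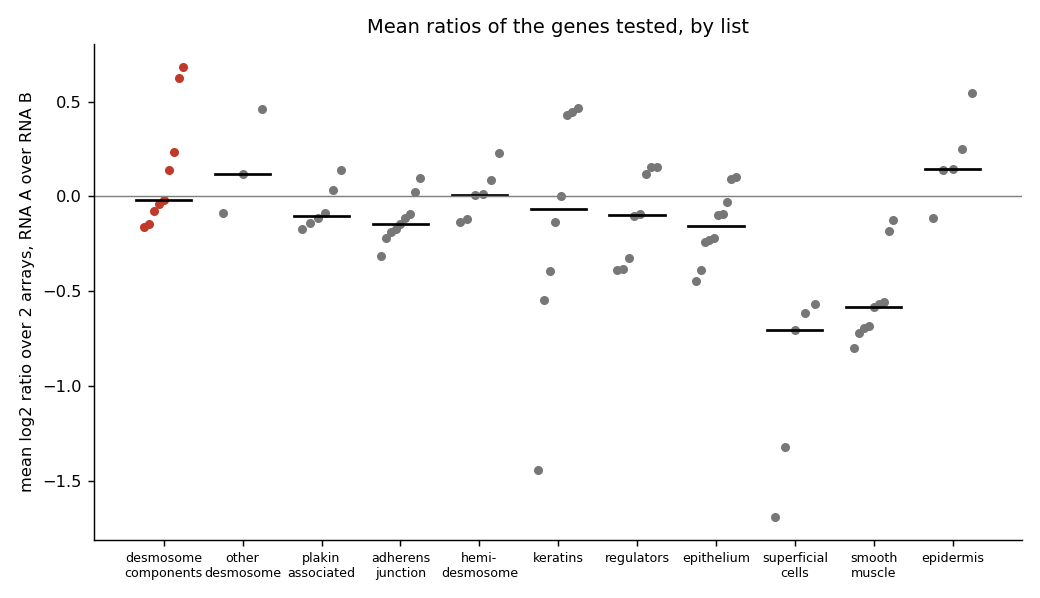
Mean log2 ratio over 2 arrays of each gene tested, by list, with a black line at each list's median; the desmosome components are in red. Their median lies at -0.02, that of superficial cell genes at -0.70 and that of smooth muscle genes at -0.58.

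Of 10 general epithelial genes, all were tested, 0 passed either test and 8 had opposite signs. Epcam gave 3373 in RNA A against 2861 in RNA B for array 1, and 2976 against 3092 for array 2, and the log2 ratios averaged 0.09 ± 0.21 (SD, n = 2 arrays). The lowest mean of the list was that of Esrp2 (-0.44), and its median was -0.16. Their summed signal was 18751 in RNA A against 20418 in RNA B for array 1, and 19397 against 21677 for array 2. Such a sum follows its brightest genes. Cdh1 gave 4323 against 6498 on array 1, and Esrp1 2532 against 5053 on array 2. Each went the other way on the other array, Cdh1 with 5935 against 5330 and Esrp1 with 4632 against 3186. No amount of epithelium is read from these values.

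Genes of other cell types are given by the same counts, with no test against the desmosome genes. All 5 uroplakins of superficial cells had the brighter signal in RNA B on both arrays, against 17.4% of all genes tested. Of these, 3 passed the filter (Upk1a, Upk3a and Upk3b), against 0.387% of all genes. In the limma fit 2 passed (Upk1a and Upk3b), against 0.313% of all genes tested. The limma calls of this paragraph depend on the processing, as given at the end. Upk2 had the mean nearest 0 (-0.57). Upk3b had the lowest mean (-1.69 ± 0.033; SD, n = 2 arrays; limma adjusted p = 0.0201) and Upk1a a mean of -1.32 (limma adjusted p = 0.0451). Of 9 smooth muscle genes, 7 had the brighter signal in RNA B on both arrays, against 17.4% of all genes tested. None of the 9 passed the filter or limma, and their means ran from Myh11 (-0.80) to Des (-0.12). An unadjusted limma p under 0.05 was found for all 5 uroplakins and 7 smooth muscle genes, against 3.78% of all genes tested. Of the 6 nephron genes 3 were tested, and Slc34a1, a phosphate transporter of the proximal tubule, passed limma as brighter in RNA B (adjusted p = 0.0122), with signals of 6.20 and 4.20 in RNA A, well above background on 1 of 2 arrays, and of 30.8 and 37.2 in RNA B, while Lrp2 was nearest 0 (-0.35).

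Pkp2 and Dsp are also expressed in heart muscle, Perp in many epithelia. Of 5 heart muscle genes tested, 0 passed either test, from Myh6 (-0.70) to Nppa (0.18). Of 4 collecting duct genes 3 were tested, from Scnn1b (-0.32) to Fxyd4 (1.16 ± 0.56; SD, n = 2 arrays), which passed the filter as brighter in RNA A. The 5 endothelial genes had opposite signs throughout, from Cdh5 (-0.12) to Tek (0.23). The part of these cell types in the desmosome values was not tested.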

How the data were processed

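Signals were read from 2 dual-colour arrays. Per the file headers, Agilent Feature Extraction 10.7.3.1 made the authors' processed intensities, background-subtracted, with surrogates near background, and dye-normalised by LOWESS within each array. The deposited log10 ratio (red over green) served only to check dyes, and on each array 88.9% of spots held the quotient of the processed signals to within 0.001. A further deposited table, the authors' signed fold changes, whose file states neither direction nor centring (median 1 on both arrays), correlated with RNA A over RNA B with r = 0.996 (18720 probes) and 0.997 (18978 probes, array 2) and served as an alternative.

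Control and outlier-flagged spots (5705 on array 1, 5579 on array 2) were left out, log2 processed signals were averaged per probe, and each gene takes the values of its brightest probe. No spot was saturated. Names came from the RefSeq listing of GRCm38.p6 for 28328 of 39429 probes, and the other 11101 kept the file's name. Coordinates follow the files (mm9). Well above background means that a share of 0.5 or more of the spots of a probe were so marked. Marked were, on array 1, 80.3% (green) and 70.4% (red) of the spots, and on array 2 80.4% and 70.4%. Ratios are given as mean ± SD of 2 arrays, whose number limits precision.

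limma 3.58.1 (intercept, eBayes, Benjamini-Hochberg over 21429 genes; R 4.3.3) gave p-values and 95% intervals. The spread covers 1 female and 1 male array, and an exact sign-flip test of 2 arrays cannot go below p = 0.5. The model and filter were also run on simulated data. The outcome of that run is not given here, and nothing is read from it. Alternatives were normexp (offset 50) with loess, loess alone, median centring, the authors' table, averaging probes, no dim filter, flagged spots kept, an intensity trend, signal thresholds of 50 and 200, 1.2-fold and leaving out each array. Well above background in place of the signal threshold was added after seeing the data. The desmosome genes and all lists were chosen with earlier results of these data known. Named are all members, Cdh1, Epcam, Trp63 and Pparg, and of each list the genes past a threshold and the highest and lowest mean, except 1 epithelial gene that is not reported here. Dsg1a, the Esrp1 signals and the remaining epidermal values were named after their values were seen. Kazn is labelled in a figure only, outside this rule.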

Additional observations from a re-analysis of the deposited data

Results flagged for a closer look

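Among desmosome genes, 4 had ratios of opposite sign on the female and male arrays. Whether the arrays differ was not tested, and dye and sex cannot be told apart. As the log2 ratio of RNA A over RNA B on array 1 minus that on array 2, it was -0.81 for Dsp, -0.57 for Pkp2, -0.42 for Jup and 0.55 for Pkp3.

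The same held for further genes named here. The difference was -0.74 for Cdh1, -1.66 for Cdh3, -1.74 for Itgb4, -1.26 for Klf5, -0.41 for Trp63, -0.65 for Cdh5 and -0.63 for Des, all brighter in green on both arrays. It was 0.98 for Dsc1, 0.29 for Epcam, 1.54 for Esrp1, 0.36 for Pof1b, 0.52 for Lor and 0.55 for Tek, all brighter in red on both. Opposite signs were found in 61% of all genes tested.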

How the results depend on the processing

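In 6 alternatives that recompute the ratios, the 54 means of the 9 desmosome genes tested kept their sign. Part of these means could not differ. Keeping flagged spots changed only Dsc3, and averaging probes changed only Dsg2 and Dsc3. Under these 6 and the 2 that change only the fit, no desmosome gene passed the limma threshold (lowest adjusted p 0.455). Sizes moved: Dsc3 averaged 0.24 with normexp and loess, whose offset of 50 exceeds its signals, against 0.68, and Dsg2 averaged -0.24 over all its probes, against -0.04. Pkp1 averaged more than Dsc3 with normexp and loess (0.59) and with the authors' table (0.66 against 0.63). With 1 array left out there is no test, and the ratio ran from -0.48 to 0.33 for Dsp, from -0.37 to 0.052 for Jup, from -0.30 to 0.27 for Pkp2 and from -0.42 to 0.13 for Pkp3, each changing sign. The median of the desmosome genes ran from 0.054 to 0.24 (array 2 alone). The count past the filter as brighter in RNA A ran from 0 to 1, the 1 being Pkp1 on array 2 alone, and was 1 (Dsc3) where well above background replaced the threshold of 100.

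Over all genes, 47 passed the filter towards RNA A and 69 towards RNA B. These counts were 199 and 265 at 1.2-fold, 28 in RNA A at a signal of 200, and 128 and 148 with well above background. On 1 array they ran from 301 to 321 and from 488 to 637. limma called 27 genes towards RNA A and 40 towards RNA B, against 9 and 24 with loess, 1 and 0 with normexp, 0 and 0 with the authors' table, 0 and 0 without the dim filter, and 15 in RNA A with flagged spots kept. Where the limma count towards RNA B was 0, Upk1a, Upk3b and Slc34a1 were thus not called either. The cause of these changes was not tested. A slide or scan block was not run, since both arrays shared 1 slide and 1 scan. No further pairing was applied, because each ratio in the limma fit already pairs both RNAs of an array. Below a signal of about 100, as for Dsc3, Dsg3 and Jup, signal over background limits the reading.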
